A study of Homo sapiens with 15 samples.

Results

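The let-7 guide strands are the mature miRNAs that the let-7 hairpins release from their 5′ arms. The family was taken by name as hsa-let-7a-5p, hsa-let-7b-5p, hsa-let-7c-5p, hsa-let-7d-5p, hsa-let-7e-5p, hsa-let-7f-5p, hsa-let-7g-5p, hsa-let-7i-5p and hsa-miR-98-5p, which gave 9 miRNAs, called let-7a to let-7i and miR-98 from here on. All 9 were listed among the 2418 miRNAs counted in the knockdown libraries and among the 2189 counted in the RNA immunoprecipitation (RIP-seq) libraries. The small RNA came from the cell lines FTO1C1, FTO2D4 and FTO3C3, which are derivatives, in the Flp-In system, of human embryonic kidney HEK293 cells. The paper states for the knockdown that these lines were used without induction. For the knockdown, each line was harvested 48 h after transfection with 10 nM of siRNA against FTO or of scrambled siRNA, where FTO is an enzyme that removes the methyl group of N6-methyladenosine (m6A). For RIP-seq, no siRNA dose or time is listed for the lines. Small RNA of each line was sequenced unprecipitated (input) and as precipitates of an m6A antibody (m6A IP) and an isotype control antibody (IgG IP). Each line gave 1 library per group, so there were 5 groups of 3 and 15 libraries in all, and the p-values measure the spread between derivatives of 1 parent line.

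let-7 miRNAs are loaded into the RNA-induced silencing complex, where the guide strand pairs through its seed with target messenger RNAs and lowers their output. They are known as a family that builds up as cells differentiate and that restrains growth genes such as RAS, MYC and HMGA2. Their maturation is held back by the RNA-binding proteins LIN28A and LIN28B, which bind let-7 precursors. The passenger strand, on the opposite arm of the hairpin, is usually degraded.

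The mature sequences are shown because the members share their seed and differ at few other bases, so that any difference between members in the values below goes with a small difference in sequence. They are taken from RefSeq (GRCh38.p14), run 5′ to 3′ and have the seed, bases 2 to 8, in capitals.
let-7a-5p: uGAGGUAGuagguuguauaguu
let-7b-5p: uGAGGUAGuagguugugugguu
let-7c-5p: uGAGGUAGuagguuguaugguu
let-7d-5p: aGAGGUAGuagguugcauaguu
let-7e-5p: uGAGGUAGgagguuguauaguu
let-7f-5p: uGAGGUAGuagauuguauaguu
let-7g-5p: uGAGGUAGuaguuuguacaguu
let-7i-5p: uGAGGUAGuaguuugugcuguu
miR-98-5p: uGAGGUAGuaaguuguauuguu
All 9 have 22 bases and the same seed. Counted from 1 at the 5′ end, with the base of let-7a first, let-7c differs from let-7a by A19G, let-7e by U9G and let-7f by G12A. let-7b differs by A17G and A19G, let-7d by U1A and U16C, let-7g by G12U and U18C, and miR-98 by G11A and A19U. let-7i is the most distant from let-7a, with G12U, A17G, U18C and A19U. A read was assigned by the authors to the miRNA with which it shared the most bases, so members that differ at 1 base can hold some of each other's reads, and their separate values are uncertain to that extent. One other miRNA in the counts had the same seed among the 2127 of 2424 miRNAs that matched a sequence in the RefSeq table.
miR-4458: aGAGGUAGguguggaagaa
The letters AAC or GAC, the core of the motif at which m6A is placed in messenger RNA, were searched on the miRNA strand. They occur in 0 of the 9 members and in 796 of the 2127 miRNAs (37.4%). This is a count of letters, and the position of a methyl group was not measured.

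The 9 guide strands come from 12 hairpins on 8 chromosomes (GRCh38.p14). let-7a has 3 hairpins, at chr9:94175957-94176036, chr11:122146522-122146593 and chr22:46112749-46112822. let-7f has 2, at chr9:94176347-94176433 and chrX:53557192-53557274. The chromosome 9 cluster also holds let-7d (chr9:94178834-94178920) and lies within the long non-coding RNA gene MIRLET7A1HG. let-7b (chr22:46113686-46113768) lies beside the let-7a hairpin on chromosome 22 and the hairpin of miR-4763, within MIRLET7BHG. let-7c (chr21:16539828-16539911) lies in MIR99AHG beside miR-99a, and the let-7a hairpin on chromosome 11 lies in MIR100HG beside miR-100. let-7e (chr19:51692786-51692864) lies beside miR-99b and miR-125a, within the bounds of SPACA6 and SPACA6-AS1. miR-98 (chrX:53556223-53556341) and the let-7f hairpin beside it lie in HUWE1, let-7g (chr3:52268278-52268361) in WDR82 and let-7i (chr12:62603686-62603769) in MIRLET7IHG. Because let-7a and let-7f each have several sources, a change in their reads cannot be placed at 1 hairpin.

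The knockdown libraries held between 1991317 and 3876806 miRNA reads, and the RIP-seq libraries between 186446 (IgG IP, FTO3C3) and 4973238 (m6A IP, FTO3C3). All levels are reads per 1000000 miRNA reads (RPM), so they are shares of each library. In RIP-seq these totals rest on few miRNAs: miR-6080 held 41.3% to 47.8% of the m6A IP, 58.0% to 71.6% of the IgG IP and 15.5% to 28.4% of the input reads, and its count was the same, 563404, in the IgG and m6A libraries of FTO2D4. Every RPM and ratio of these 2 libraries rests on that count, above all in the IgG library, where it is 71.6% of the reads, and whether it is an error was not tested. Values without miR-6080 in the totals or without FTO2D4 are given below for some of the calls. miR-3168 held another 5.33% to 32.3%. In the knockdown libraries miR-10a-5p held 22.1% to 30.6%. A list of 6 miRNAs abundant in HEK293 cells summed to between 370867 and 468644 RPM in the scrambled siRNA libraries, whereas the 10 markers of liver, blood, muscle, neuronal and endothelial cells summed to at most 409 RPM in the knockdown libraries. In RIP-seq the 8 such markers listed summed to 579 to 1033 RPM in the input and to 927 to 2210 RPM in the m6A IP. The 6 miRNAs of the HEK293 list summed to 147831 to 236087 RPM in the input, 89793 to 116170 RPM in the m6A IP and 1010 to 2419 RPM in the IgG IP, so they were low in the IgG IP as the family was. All 6 were called lower in IgG IP against input, where 21.8% of all miRNAs tested were. All 5 tested were called higher in m6A IP against IgG IP, where 38.6% of all were, and DESeq2 called 5 of 6 higher there. miR-17-5p and miR-20a-5p held at most 3.81 and 2.54 RPM in the IgG IP. They could pass the filter on low counts only through the other group, so their calls carry no weight as a count. The part of either list in the results below was not tested.

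The 9 guide strands made up a small part of the miRNA reads of these cells, and almost all of that part was let-7f and let-7a. The share of the family was 2.29% ± 0.175 (SD, n = 3) in the scrambled siRNA and 2.45% ± 0.138 in the FTO siRNA libraries. It was 0.516% ± 0.154 in the input, 0.768% ± 0.283 in the m6A IP and 0.0247% ± 0.00912 in the IgG IP, where 62 to 203 reads fell on the whole family. The IgG precipitate thus held the fewest let-7 guide reads in every line. Reads on guide strands outnumbered those on the listed passenger strands by 74.7 to 111 times in the knockdown libraries, by 13.3 to 22.3 times in the input, by 20 to 65.1 times in the m6A IP and by 1.09 to 1.93 times in the IgG IP. The 2 tables list different passenger strands, 11 and 7, so this ratio can be compared only within a table.

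In the scrambled siRNA libraries let-7f stood first at 13285 ± 950.3 RPM (SD, n = 3), and let-7a second at 8084 ± 2557 RPM. let-7a held 6228 RPM in FTO1C1, 7024 in FTO2D4 and 11001 in FTO3C3, so the last line stood apart for this member. let-7g (448 ± 41.0 RPM), let-7i (352 ± 95.3), let-7e (250.3 ± 22.4), let-7c (212 ± 67.7) and miR-98 (201 ± 88.0) followed. let-7b (52.1 ± 8.60) and let-7d (22.3 ± 1.06) were the least abundant. Of the 8 pairs of neighbours in this order, 4 overlapped between libraries, all of them among let-7g, let-7i, let-7e, let-7c and miR-98, so the order within that middle group is not resolved. let-7d shares a cluster and a host gene with let-7a and let-7f and still had the lowest level of the family. In the input 3 of the 8 neighbours overlapped, in the m6A IP 5 and in the IgG IP 7.

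**Figure D1:**
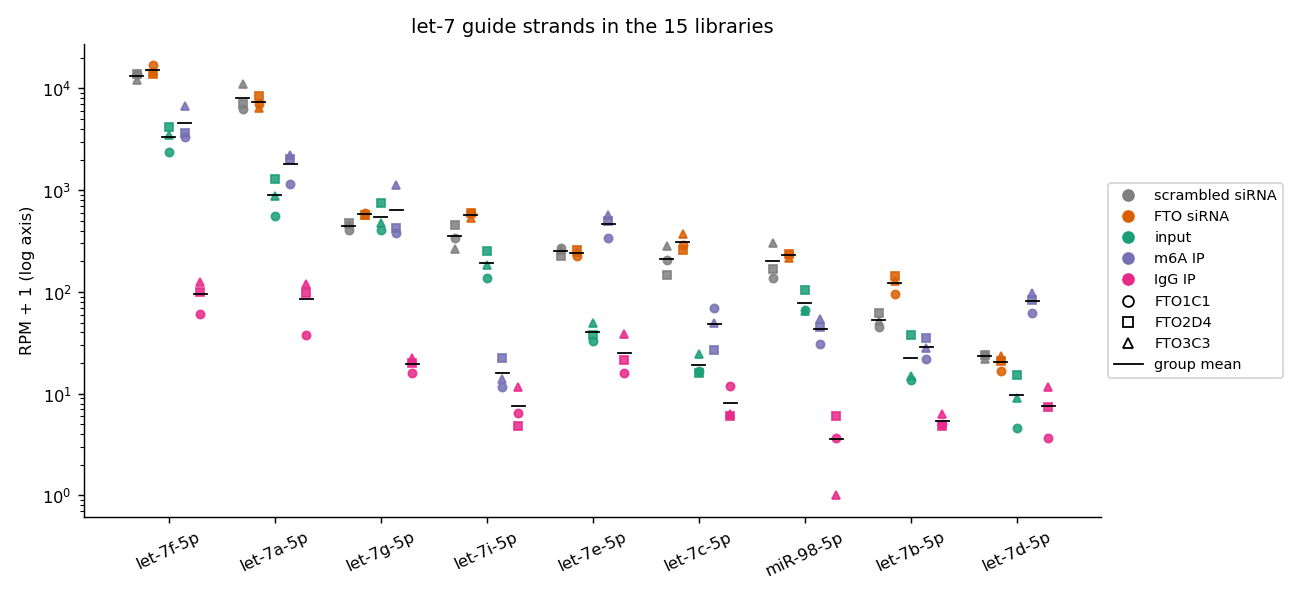
Reads per 1000000 miRNA reads (RPM) plus 1 on a log axis for the 9 guide strands in the 15 libraries, coloured by group, with 1 symbol per line and a bar at the mean of 3. let-7f and let-7a lead in all groups, the IgG IP (pink) is lowest for every member by its mean, let-7b and let-7i are higher after FTO siRNA (orange) than after scrambled siRNA (grey), and let-7e and let-7d are higher in the m6A IP (violet) than in the input (green) while let-7i is lower.

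The make-up of the family does not depend on the total of the library. let-7f was 58.4% ± 8.16 (SD, n = 3) of the family reads in the scrambled siRNA libraries, 65.4% ± 2.55 in the input, 59.1% ± 4.48 in the m6A IP and 38.1% ± 1.10 in the IgG IP. let-7a was 34.9% ± 8.23, 17.1% ± 2.09, 23.8% ± 4.98 and 32.3% ± 7.20 in the same order. In RIP-seq the shares of 6 members differed between m6A IP and input without overlap, among them let-7e, let-7d and let-7i. let-7e was 0.554% to 0.924% of the family in the input, 5.23% to 7.21% in the m6A IP and 7.88% to 11.3% in the IgG IP. let-7d was 0.0987% to 0.216%, 0.895% to 1.22% and 1.79% to 3.23%. let-7i went the other way, from 3.53% to 3.80% in the input to 0.119% to 0.312% in the m6A IP, and it was 1.48% to 3.57% in the IgG IP. The larger part taken by let-7e and let-7d relative to the input was therefore seen in both precipitates, whereas the small share of let-7i, below that in the input and in the IgG IP without overlap, was seen in the m6A precipitate. The IgG shares of let-7d, let-7e and let-7i rest on 2 to 5, 7 to 16 and 2 to 4 reads per library. A larger share there was not a higher level: the mean ratio of IgG IP to input was 0.848 for let-7d, 0.599 for let-7e and 0.0278 for let-7f.

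**Figure D2:**
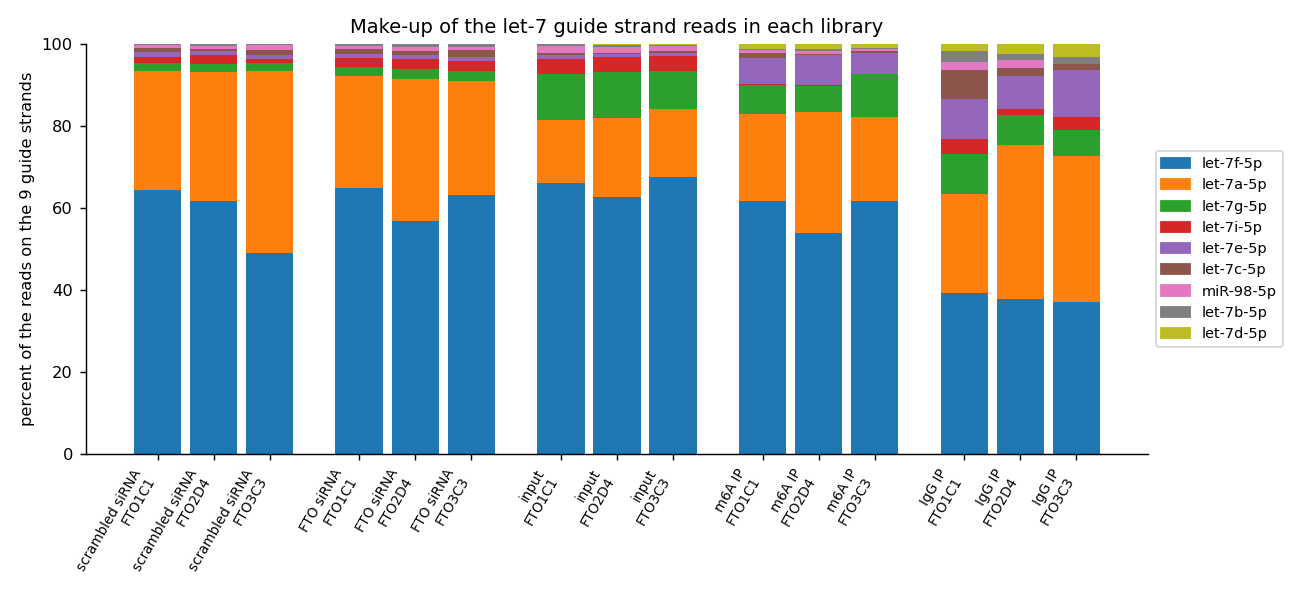
Stacked bars of the percent of the reads on the 9 guide strands that fell on each member, 1 bar per library, for the 5 groups of 3 lines. let-7f and let-7a fill most of every bar, and let-7e (purple) widens from 0.554% to 0.924% in the input to 5.23% to 7.21% in the m6A IP.

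The knockdown libraries address whether the level of these miRNAs moves when FTO is lowered. let-7b and let-7i were called higher after FTO siRNA, and no member was called lower. From its sequencing, the paper lists let-7b and let-7i as increased and gives a small reduction of let-7e. The mean ratio of let-7e in these counts was 0.978 ± 0.155 (SD, n = 3). By qRT-PCR in these lines, the paper reports let-7e as reduced and did not find let-7b increased. The rise of let-7b given below therefore rests on the sequencing alone. By edgeR's quasi-likelihood test, blocked by line, and Benjamini-Hochberg adjustment over the 2374 miRNAs tested, 2 of the 9 members had an adjusted p under 0.05, against 5.48% of all miRNAs tested, of which 118 (4.97% of those tested) were higher and 12 lower. At an unadjusted p under 0.05, 4 members were higher and 0 lower, beside 568 and 53 of the 2374 miRNAs tested. DESeq2 called 1 member higher and 0 lower, beside 33 higher and 58 lower of 2418 miRNAs. All 9 members passed the filter on low counts in either group alone. The median log2 fold change was 0.27 over the members and 0.29 over all miRNAs, so the family as a whole lay near the other miRNAs. These are bulk libraries, in which fewer cells with a miRNA and less of it per cell cannot be told apart.

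let-7b, which differs from let-7a at 2 bases and is the only member with 10 G, held 44.3 RPM (FTO1C1), 61.3 RPM (FTO2D4) and 50.7 RPM (FTO3C3) with scrambled siRNA, and 95.1, 141 and 126 RPM with FTO siRNA. The groups did not overlap, and the level rose 2.15-fold, 2.30-fold and 2.49-fold in the 3 lines. The log2 fold change was 1.21 (SE 0.18), with an adjusted p of 0.0075. It stood above 99.3% of the log2 fold changes of all miRNAs tested, and it kept an adjusted p of 0.0276 with TMM factors, which set the bulk of miRNAs to no change. Without FTO1C1 its log2 fold change was 1.26, but the adjusted p was 0.204, and 0 of 2363 miRNAs were called, with 327 at an unadjusted p under 0.05.

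let-7i held 336 RPM (FTO1C1), 454 RPM (FTO2D4) and 265 RPM (FTO3C3) with scrambled siRNA, and 598, 594 and 529 RPM with FTO siRNA. Again the groups did not overlap, and the scrambled library of FTO3C3 was the lowest. The log2 fold change was 0.74 (SE 0.17), with an adjusted p of 0.0348 and within-line ratios of 1.78, 1.31 and 2.00. This call is less firm than that of let-7b: the adjusted p was 0.253 with TMM factors, 0.195 with DESeq2, 0.129 without the line as a block, 0.310 without FTO1C1 and 0.062 without FTO3C3. Without the block, 41 miRNAs were called in place of 130.

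let-7g went from between 401 and 478 RPM to between 568 and 590 RPM, without overlap, with a log2 fold change of 0.37 (SE 0.15) and an adjusted p of 0.154. let-7c was higher in 3 of 3 lines, with overlapping ranges, a log2 fold change of 0.57 (SE 0.16) and an adjusted p of 0.0656. In all, 4 members were higher in every line, against 44.0% of all miRNAs tested, and 3 were higher without overlap, against 26.7%. The abundant members did not pass the test: let-7f had a log2 fold change of 0.18 (SE 0.13, adjusted p = 0.391), and let-7a of -0.10 (SE 0.20, adjusted p = 0.757). The value of let-7a rests on FTO3C3, where it went from 11001 to 6462 RPM, and it was 0.22 without that line. miR-98 (0.27, SE 0.23), let-7e (-0.05, SE 0.16) and let-7d (-0.22, SE 0.20) also missed the threshold, and these 3 members, let-7f and let-7a differed in direction between lines. By the make-up of the family, which is free of library totals, the shares of let-7b, let-7g and let-7i were higher after FTO siRNA without overlap, and that of let-7b went from 0.204% to 0.273% to 0.367% to 0.579%.

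**Figure D3:**
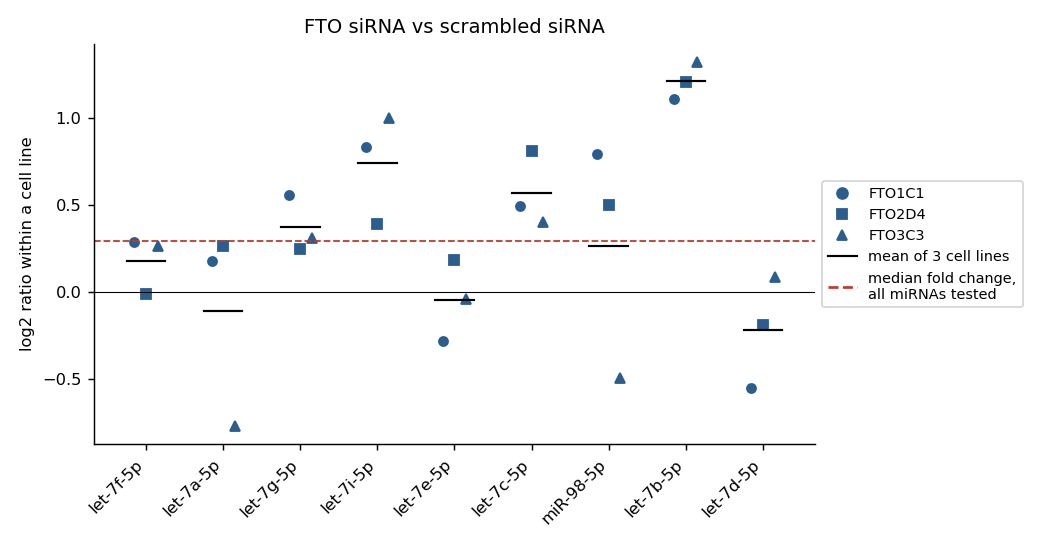
log2 ratio of FTO siRNA to scrambled siRNA within each line for the 9 guide strands (1 symbol per line), with the mean of the 3 lines as a bar and the median fold change of all miRNAs tested, 0.29, as a dashed line. let-7b lies above the dashed line in all 3 lines and has the highest mean, and let-7a, let-7e, let-7d, let-7f and miR-98 lie on both sides of 0.

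The scale of the whole comparison bears on these values. With TMM factors 21 miRNAs were called higher and 34 lower, in place of 118 and 12, the median of the members was -0.03, and let-7b was the only member called. Relative to the median of all miRNAs, let-7b and let-7i remain on the higher side, whereas let-7f and miR-98 turn from above to below 0.

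The miRNAs of the same hairpins and clusters were read in the same way. Of the 11 listed passenger strands, 1 was called higher after FTO siRNA, let-7f-2-3p (22.3 ± 2.10 to 41.7 ± 9.19 RPM, log2 fold change 0.89, adjusted p = 0.0377), and 0 were lower. At an unadjusted p under 0.05, 2 passenger strands were higher and 0 lower, beside 568 and 53 of the 2374 miRNAs tested. DESeq2 called 0 of the 11. DESeq2 called 1 higher and 1 lower of the 13 miRNAs that share a cluster with a let-7 hairpin. With edgeR 1 of the 13 was called higher and 0 lower: miR-4763-3p, from the chromosome 22 cluster of let-7b (124 ± 13.7 to 245 ± 36.1 RPM, log2 fold change 0.98, adjusted p = 0.011). In that cluster let-7b and miR-4763-3p were thus called higher, and the other arms of both hairpins were not. let-7b-3p was at 5.88 ± 4.19 and 5.41 ± 1.52 RPM (log2 fold change -0.07, adjusted p = 0.928). miR-4763-5p had a log2 fold change of 0.54 and an adjusted p of 0.123. let-7a, which has a hairpin in the same cluster and others elsewhere, had the values given above. The neighbours of let-7e, miR-99b-5p (-0.05) and miR-125a-5p (0.02), and the neighbour of let-7c, miR-99a-5p (-0.32), were not called. miR-4458, which shares the seed, was at 4.83 ± 1.36 and 7.70 ± 1.61 RPM, with a log2 fold change of 0.64 and an adjusted p of 0.198.

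RIP-seq addresses which miRNAs an antibody against m6A retains. The comparisons of m6A IP with IgG IP, of m6A IP with input and of IgG IP with input share libraries, so their values are given side by side and are not independent of one another. Against the IgG IP, let-7f, let-7a, let-7g and let-7e had mean ratios between 20.7 (let-7e) and 49.2 (let-7f). In the edgeR quasi-likelihood test 8 of the 9 members passed the filter on low counts and all 8 had an adjusted p under 0.05 and were higher, where 38.6% of all 2054 miRNAs tested were called higher. Only 4 members, let-7a, let-7e, let-7f and let-7g, reached the minimum level of the filter in the IgG libraries alone. let-7b, let-7c, let-7d and miR-98 passed through their level in the m6A IP, so their calls carry no weight as a count.

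let-7f held 3317 RPM in FTO1C1, 3674 in FTO2D4 and 6676 in FTO3C3 in the m6A IP, and 59.3, 97.9 and 123 RPM in the IgG IP. The ratio was 49.2 ± 10.1 (SD, n = 3), the log2 fold change 5.58 (SE 0.32) and the adjusted p 3.79e-06. let-7a held 1145, 2017 and 2239 RPM against 36.4, 96.6 and 118 RPM, with a log2 fold change of 4.53 (SE 0.31) and an adjusted p of 9.83e-06. For both members every m6A library was far above every IgG library, and 45.8% of all miRNAs tested were higher without overlap. let-7g (log2 fold change 4.86, SE 0.37) and let-7e (4.37, SE 0.35) had adjusted p values of 1.62e-05 and 2.02e-05, and their groups did not overlap either. The IgG counts behind them are small: let-7g had 11, 15 and 4 reads and let-7e 11, 16 and 7.

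The other members rest on a handful of IgG reads. let-7d had 35, 113 and 482 reads in the m6A IP against 2, 5 and 2 in the IgG IP, let-7c 39, 35 and 241 against 8, 4 and 1, and let-7b 12, 47 and 135 against 3, 3 and 1. miR-98 had 17, 60 and 264 reads against 2, 4 and 0. Their log2 fold changes were 3.79 (SE 0.46), 2.62 (SE 0.45), 2.71 (SE 0.54) and 3.53 (SE 0.57), in that order. let-7i, the member below the filter, had 6, 29 and 64 reads in the m6A IP against 4, 3 and 2 in the IgG IP. Its ratios were 1.95, 5.58 and 1.2, and its levels overlapped between the groups, so a difference was not detectable at this depth.

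The scale moved the calls over all miRNAs. With TMM factors 453 miRNAs were called higher and 302 lower in place of 792 and 26, with totals that leave out miR-6080 446 and 257, and with totals that leave out miR-6080 and miR-3168 258 and 763. let-7a, let-7e, let-7f and let-7g, which reached the minimum level in both groups, were called higher under all 9 alternatives, with adjusted p values of at most 0.00828. Among the members that passed through the m6A IP, let-7c had an adjusted p of 0.0644 without both miRNAs, where let-7b was below the filter, and let-7b had one of 0.0805 with DESeq2. The members' median log2 fold change was 4.08 and that of all miRNAs tested 0.83.

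The low level of the IgG IP is seen against the input as well. let-7f (log2 fold change -5.20, SE 0.46), let-7i (-5.03, SE 0.62), let-7g (-4.89, SE 0.52), miR-98 (-4.59, SE 0.69), let-7a (-3.53, SE 0.45) and let-7b (-2.35, SE 0.68) were lower in the IgG IP than in the input. These are 6 of the 8 members tested, where 21.8% of 1941 miRNAs were called lower. let-7b, let-7c, let-7i and miR-98 reached the minimum level of the filter in the input and not in the IgG IP, so the calls of let-7b, let-7i and miR-98 carry no weight as a count, and let-7a, let-7f and let-7g are the members called that reached it in both groups. let-7e (-0.79, SE 0.52, adjusted p = 0.182) and let-7c (-1.18, SE 0.60, adjusted p = 0.0815) were not called, and let-7d, with 2 to 5 reads in the IgG IP, was below the filter. All 3 IgG libraries held 0.0151% to 0.0333% of their reads on the family, which is 0.0482 ± 0.0138 (SD, n = 3) of the share in the input of the same line. The members' median was -4.06 and that of all miRNAs 0.49. The calls over all miRNAs, 714 higher and 423 lower, became 559 and 586 with TMM factors, 1231 and 273 without miR-6080, and 1489 and 224 without miR-6080 and miR-3168. let-7e turned to 0.35 without miR-6080, and let-7e and let-7c to 0.89 and 0.52 without both. Other alternatives moved them the other way, down to -1.39 for let-7e and -1.82 for let-7c. DESeq2 called 8 of the 9 members lower, beside 541 lower and 442 higher of 2189 miRNAs. let-7b lost its call without miR-6080 (log2 fold change -1.18, adjusted p = 0.087), without both (-0.62, adjusted p = 0.346) and without FTO2D4 (-1.55, adjusted p = 0.0938). let-7a, let-7f and let-7g kept theirs under these 3 alternatives.

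**Figure D4:**
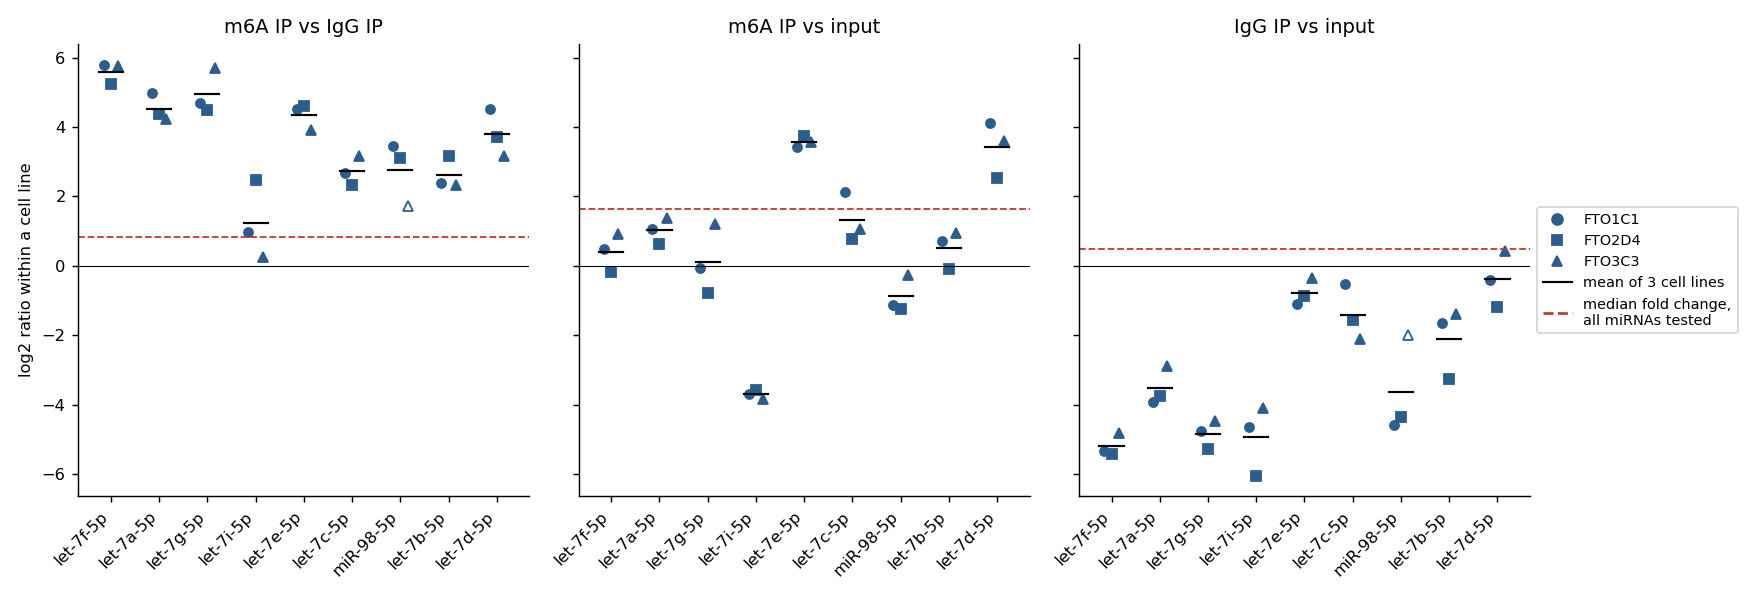
log2 ratios within each line for the 9 guide strands in m6A IP against IgG IP, m6A IP against input and IgG IP against input, with the mean of 3 lines as a bar and the median fold change of all miRNAs tested (0.83, 1.65 and 0.49) as a dashed line; for the open symbol the IgG count of 0 was set to 3 reads. In the m6A IP against input panel let-7e and let-7d lie above the dashed line, let-7i is near -3.70, and the other members lie between.

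Against the input, the members of the family parted. let-7e and let-7d were higher in the m6A IP, let-7i was lower, and the abundant let-7f was not called. The edgeR test called 4 members higher (66.8% of 2174 miRNAs tested) and 1 lower (10.5% of all). Since the median log2 fold change of all miRNAs was 1.65, a miRNA at 0 on this scale lies below most others, and the members' median of 0.49 was below that of all miRNAs. The calls over all miRNAs, 1452 higher and 229 lower, became 575 and 614 with TMM factors, and those of the members became 2 higher and 5 lower.

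let-7e, which differs from let-7a by U9G next to the seed, held 31.9 RPM in FTO1C1, 37.0 in FTO2D4 and 48.0 in FTO3C3 in the input, and 341, 492 and 567 RPM in the m6A IP. It was higher 10.7-fold, 13.3-fold and 11.8-fold, with a log2 fold change of 3.57 (SE 0.42) and an adjusted p of 3.77e-08. With TMM factors the log2 fold change was 2.02 and the adjusted p 0.000506, so let-7e was higher on either scale. Its groups did not overlap, and 68.2% of all miRNAs tested were higher without overlap. In the order of levels it moved from the sixth place in the input to the fourth in the m6A IP.

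let-7d, the member that starts with A, held 3.55, 14.4 and 8.0 RPM in the input, or 5, 21 and 12 reads, and 61.5, 82.9 and 96.9 RPM in the m6A IP. Its groups did not overlap, and its ratios were 17.3, 5.76 and 12.1. The log2 fold change was 3.30 (SE 0.46), with an adjusted p of 4.56e-07, and 1.74 with an adjusted p of 0.00366 with TMM factors. It reached the minimum level of the filter in the m6A libraries but not in all input libraries, so this difference was favoured by the filter.

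let-7i, the member farthest from let-7a, held 136, 253 and 183 RPM in the input and 10.5, 21.3 and 12.9 RPM in the m6A IP. The groups were far apart, where 11.2% of all miRNAs tested were lower without overlap, and the m6A libraries held 0.0773, 0.0840 and 0.0702 of the level in the input of the same line. The log2 fold change was -3.70 (SE 0.45), with an adjusted p of 5.02e-08, among the lowest 1.98% of all miRNAs tested, and it was -5.27 with TMM factors. Its level was 14.9 ± 5.65 RPM in the m6A IP and 6.65 ± 3.62 RPM in the IgG IP (SD, n = 3), with the IgG counts of 2 to 4 reads given above. miR-98 was lower in 3 of 3 lines without overlap, from between 64.0 and 103 RPM to between 29.9 and 53.1 RPM, with a log2 fold change of -0.86 (SE 0.41) and an adjusted p of 0.06. It was called lower with TMM factors, where it stood at -2.41 with an adjusted p of 0.000213, and without FTO3C3 or without the line as a block.

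let-7a (log2 fold change 1.02, SE 0.40, adjusted p = 0.0218) and let-7c (1.30, SE 0.39, adjusted p = 0.00377) were called higher on the scale of total reads. Both lie below the median of all miRNAs and turned to -0.53 and -0.26 with TMM factors. Without FTO1C1 both calls were lost, and 3 members were called in place of 5, and without FTO3C3 the call of let-7a was lost. let-7b (0.49, SE 0.39), let-7f (0.41, SE 0.41) and let-7g (0.11, SE 0.43) were not called and turned to -1.07, -1.14 and -1.43 with TMM factors. Over all the alternatives let-7b lay between -1.08 and 0.954. The direction of let-7a, let-7b, let-7c, let-7f and let-7g against the input therefore depends on the scale, and that of let-7e, let-7d, let-7i and miR-98 did not.

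Differences between members within a library are free of that scale. The log2 ratio of m6A IP to input of let-7e exceeded that of let-7i by 7.27 ± 0.146 (SD, n = 3), in 3 of 3 lines. It exceeded that of let-7a, from which let-7e differs by a single base, by 2.55 ± 0.480, again in 3 of 3 lines. An exact sign-flip permutation test over 3 lines, two-sided, cannot go below p = 0.25, which is the value both reached. In the ratio of IgG IP to input, let-7e exceeded let-7a by 2.74 ± 0.190, so this difference between the sequences was of like size in the precipitate without m6A antibody. In the ratio of m6A IP to IgG IP, let-7a exceeded let-7e by 0.19 ± 0.354, in 2 of 3 lines. Of the 36 pairs of members, 31 kept the same order in all 3 lines for m6A IP against input, 28 for m6A IP against IgG IP, 29 for IgG IP against input and 22 for FTO siRNA against scrambled siRNA.

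The order of the members against the input followed their purine content. let-7i has 11 A and G bases, let-7g and miR-98 have 12, let-7a, let-7b, let-7c and let-7f have 13, and let-7d and let-7e have 14. Over the 9 members, the number of purines and the mean log2 ratio of m6A IP to input had a Pearson's r of 0.965 and a Spearman's rho of 0.949. The number of A bases alone had an r of 0.551 with that ratio, and the number of purines had an r of 0.777 with the ratio of IgG IP to input and of 0.483 with that of m6A IP to IgG IP. With the ratio of m6A IP to IgG IP the number of A bases had the higher value, an r of 0.793 and a rho of 0.791. For FTO siRNA against scrambled siRNA the number of A bases had an r of -0.863: let-7b and let-7i, the members called higher, have 3 A bases, and the others have 4 to 6. These are 6 of the 12 relations between 3 letter counts (A, G and purines) and 4 comparisons. They were looked at after the values were known, and they are descriptions with no test, over 9 related sequences that share their libraries.

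**Figure D5:**
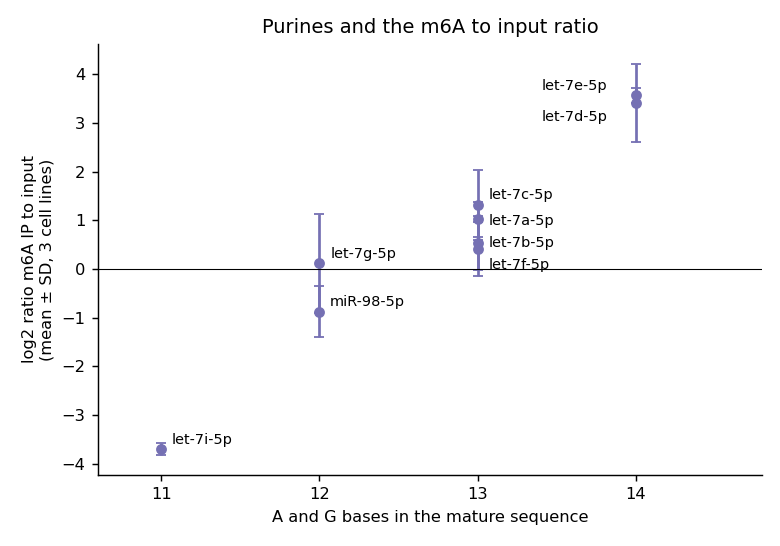
Number of A and G bases in the mature sequence against the log2 ratio of m6A IP to input for the 9 guide strands, as the mean of 3 lines with the SD as bars. The ratio is lowest for let-7i with 11 purines and highest for let-7d and let-7e with 14 (Pearson's r 0.965, n = 9).

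The passenger strands and cluster neighbours were read in the RIP-seq libraries as well. In m6A IP against IgG IP, edgeR called 0 of the 5 passenger strands tested, with 1 higher and 1 lower at an unadjusted p under 0.05, and DESeq2 called 1 lower. Over all miRNAs, 924 of 2054 were higher and 72 lower at that unadjusted p, and DESeq2 called 364 of 2189 higher and 251 lower. Against the input 4 of 7 were higher in the m6A IP, let-7c-3p, let-7d-3p, let-7g-3p and let-7i-3p, and 2 were lower, let-7a-3p (-3.83) and let-7f-2-3p (-1.99), where 66.8% of all miRNAs tested were higher and 10.5% lower. DESeq2, whose scale centres the bulk of miRNAs, called 1 higher and 2 lower, beside 486 higher and 588 lower of 2189 miRNAs. The 4 strands that edgeR called higher reached the minimum level of the filter in the m6A libraries but not in all input libraries. Their calls therefore carry no weight as a count. let-7i-3p had a log2 fold change of 3.03, opposite to its guide let-7i-5p, on 3 to 5 input reads per library. In the control precipitate it stood as high, at 3.08 in IgG IP against input. By edgeR it was at -0.18 in m6A IP against IgG IP (adjusted p = 0.751). Of the 11 cluster neighbours tested in m6A IP against IgG IP, 5 were higher: miR-125a-5p (2.54), miR-125b-1-3p (2.54), miR-125b-2-3p (3.17), miR-4763-5p (3.39) and miR-4763-3p (1.69), where 38.6% of all miRNAs tested were higher. DESeq2 called 2 higher and 1 lower of 12. miR-125b-1-3p ranged from 19.1 to 472 RPM in the m6A IP, and its levels overlapped with those in the IgG IP. miR-125a-5p, miR-125b-2-3p and miR-4763-5p reached the minimum level of the filter in the m6A libraries but not in all IgG libraries. The calls of these last miRNAs carry no weight as a count. The neighbours miR-99a-5p (0.50) and miR-99b-5p (0.80) of let-7c and let-7e were not called, and neither was miR-100-5p (-0.18). miR-4458, which shares the seed, was called higher in m6A IP against IgG IP at 2.31 (adjusted p = 0.0208) and against the input at 2.52 (adjusted p = 4.64e-05), at 21.7 ± 8.50 RPM in the m6A IP, and by DESeq2 in neither. It had 0 to 5 reads per library in the IgG IP and 2 to 8 in the input. It reached the minimum level of the filter only in the m6A IP, so both edgeR calls were favoured by the filter.

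Across the 15 libraries, the miRNAs whose pattern was most like the mean log2(RPM + 1) of the 9 members were miR-3662 (Pearson's r 0.990), miR-1914-5p (0.980), miR-7974 (0.979), miR-744-5p (0.977) and miR-539-3p (0.975), out of 432 miRNAs with a mean of at least 100 RPM. Like the family they were low in the IgG IP, where miR-3662 held 31.5 ± 5.89 RPM against 1462 ± 685 RPM in the m6A IP (SD, n = 3). Such values are common, since 73 of the 432 had an r above 0.9, and they follow mainly the difference between the IgG IP and the other groups.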

How the data were processed

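The authors trimmed adapters with cutadapt, kept reads of miRNA length and matched them to the mature human miRNAs of miRBase, giving a read that matched several miRNAs to the one with the most shared bases. They deposited counts of reads per mature miRNA, not normalized and not aligned to a genome, in 1 table for the knockdown and 1 for the RIP-seq libraries. The 2 tables were analysed separately.

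Counts were divided by the miRNA reads of the library and given per 1000000 (RPM). Each comparison was tested on the whole table with edgeR's quasi-likelihood test (the line as a block, the miRNA reads of each library as its size, and filterByExpr at 10 counts) and Benjamini-Hochberg adjustment at 0.05. The test was tested on simulated data. In ratios, 3 reads stood in for the 1 IgG count at 0. With so few reads the IgG values are bounded by counting error, and intervals from reads without molecular identifiers would cover counting error only. The named miRNAs were the members, their passenger strands, miRNAs with the same seed, the 13 neighbours within let-7 clusters, and the 5 most alike in pattern. The members and these lists were chosen with earlier results of these data known.

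Libraries of the same line are paired by design. Deviations of paired libraries from their group means correlated at 0.225 to 0.334 for FTO siRNA and scrambled siRNA, 0.0119 to 0.0311 for m6A IP and IgG IP, -0.0878 to -0.0314 for m6A IP and input, and -0.0289 to 0.0609 for IgG IP and input. Within a group, libraries differed beyond sampling noise (chi-square per degree of freedom 6.11 or more). Alternatives were TMM factors, DESeq2, no filter, no block, totals without the most abundant miRNA, each line left out, and, chosen after seeing the data, totals without miR-6080 and miR-3168. FTO itself was not measured here. edgeR 4.0.16 and DESeq2 1.42.0 ran in R 4.3.3, and figures were drawn with matplotlib 3.10.9.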

Additional observations from a re-analysis of the deposited data

How the results depend on the processing

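With FTO siRNA against scrambled siRNA, 1 member was called in place of 2 with TMM factors, with DESeq2 and without the replicate block, and 0 to 2 were called with a line left out (0 without FTO1C1, with 327 of all miRNAs at an unadjusted p under 0.05, and 1 without FTO3C3). Over all miRNAs the count was 55 with TMM factors, 41 without the block and between 0 and 201 with a line left out. let-7f turned to -0.11 with TMM factors and with DESeq2, miR-98 to -0.026 and -0.029. With a line left out, let-7e lay between -0.16 and 0.072 (without FTO1C1) and let-7a between -0.29 and 0.22 (without FTO3C3). For m6A IP against IgG IP no member changed direction, and with a line left out 470 (without FTO2D4) to 730 miRNAs were called. For m6A IP against input, let-7a, let-7b, let-7c, let-7f and let-7g turned to -0.53, -1.07, -0.26, -1.14 and -1.43 with TMM factors and to -0.55, -1.08, -0.28, -1.16 and -1.45 with DESeq2, which called 1074 miRNAs. With a line left out, let-7g lay between -0.44 (without FTO3C3) and 0.58, and 3 to 5 members were called with a line left out. For IgG IP against input, let-7e turned to 0.35 without miR-6080, and let-7c and let-7e to 0.52 and 0.89 without miR-6080 and miR-3168, when 1713 miRNAs were called. In that comparison DESeq2 called 8 of the 9 members lower. Apart from the knockdown, the replicate block changed 2 calls, miR-98 against the input (adjusted p = 0.0448 without it) and let-7c in IgG IP against input. With the most abundant miRNA left out of the totals, the family share was 3.15% (scrambled siRNA), 3.34% (FTO siRNA), 0.676% (input), 1.38% (m6A IP) and 0.0711% (IgG IP). A pseudocount of 10 kept 3 of the 5 miRNAs most alike in pattern. Of 295 log2 fold changes of members under an alternative, 250 kept their direction and their side of the threshold. Apart from the scale and the number of lines, the causes were not tested. The 62 to 203 IgG reads on the family limit the ratios to that group.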
